A study of Mus musculus with 6 samples.

Results

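Genes of the glycosyltransferases that build glycans and lactose in the Golgi apparatus were compared between mammary glands of older and younger bitransgenic mice. The members are all genes on the array whose single platform symbol begins with B4galt, B3gal, B3gnt, Gcnt, Mgat, Galnt, St3gal, St6gal, St8sia or Fut and carries a number after it, which gave 84 of 18194 genes. Each gene is represented by its brightest probe set, the one with the highest mean of log2(signal + 32) over all arrays. All mice were females of a cross between the LH mouse and the MMTV-neu mouse, so both ages carried both transgenes and no group lacked them. The MMTV promoter, a viral promoter active mainly in mammary epithelium, drives the neu (Erbb2) oncogene, and no promoter is named in the labels for the LH mouse. Total RNA came from whole mammary gland at 10 weeks (3 pools) and at 5 weeks (3 pools), and every pool combined 3 animals, or 9 animals per age. Each pool was read on 1 array, and the values are linear signal intensities with medians of 156.4 to 172.5 per array.

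These enzymes sit in the membrane of the Golgi and each adds a defined sugar, in a defined linkage, to a growing glycan on a protein or lipid, taking the sugar from a nucleotide donor. In the mammary gland the galactosyltransferase B4galt1 has a second task, because alpha-lactalbumin (Lalba) binds it and turns it into lactose synthase. Mucins, milk fat globule proteins and secreted glycoproteins of the gland carry the O-linked and N-linked chains that the other families build and cap with sialic acid or fucose.

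At 10 weeks 12 of the 84 genes were higher and 16 were lower than at 5 weeks by limma's moderated test, at a Benjamini-Hochberg adjusted p of 0.05 over all probe sets tested. Of the others, 31 did not pass the test and 25 were too dim to be tested. Over all 13002 genes tested, 34.1% were called, 15.3% as higher and 18.7% as lower, while the 28 calls made up 47.5% of the 59 glycosyltransferase genes tested, 20.3% as higher and 27.1% as lower. The median log2 difference of those 59 genes was -0.19, against 0.00 for all genes tested, and the median size of the difference, sign ignored, was 0.48 against 0.31. The differences went both ways inside most families, with 23 above 0 and 36 below. The ages did not overlap in 47 of the 84 genes, beside 42.2% of all genes on the array. Of the 84, 18 were higher at 10 weeks without overlap and 29 lower. The same shares over all genes on the array were 21.0% and 21.2%.

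**Figure D1:**
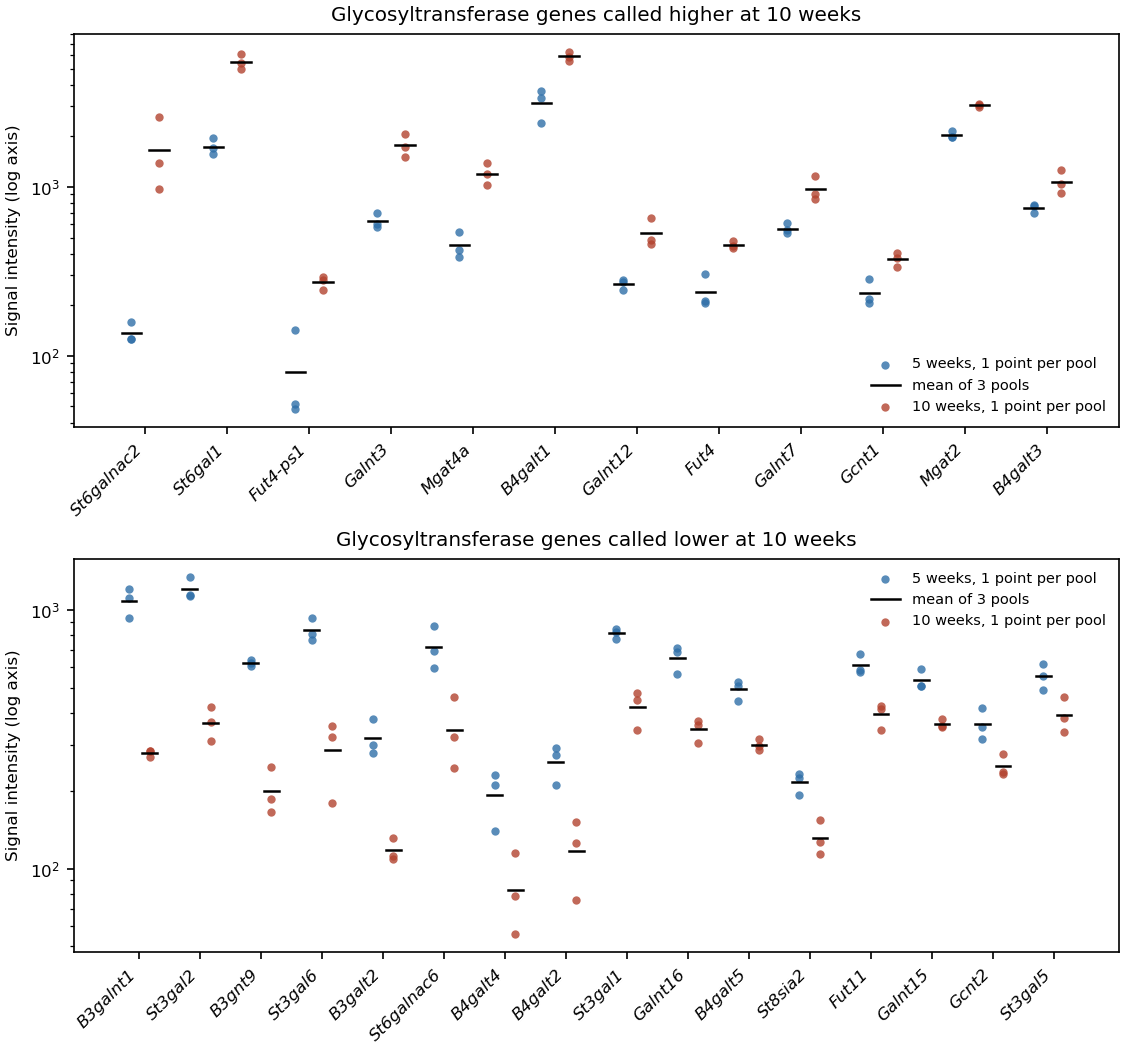
Signal intensity (log axis) of the 12 glycosyltransferase genes called higher (upper panel) and the 16 called lower (lower panel) at 10 weeks; a point is 1 pool, red at 10 weeks and blue at 5 weeks, and a black line is the mean of 3 pools. In each of these 28 genes the 3 pools of 1 age lie above the 3 of the other. This is no separate support, since the calls were made on the same values. St6galnac2 has the widest spread among the 10-week pools of the upper panel, from 966.7 to 2580.7.

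Both genes of lactose synthase were higher at 10 weeks. B4galt1 (probe set 1418014_a_at), the catalytic subunit, had signals of 5578.1, 5876.5 and 6296.9 at 10 weeks and of 3692.4, 3341.2 and 2379.3 at 5 weeks. Every 10-week pool lay above every 5-week pool, and the mean signal at 10 weeks was 5917 ± 361 (SD, n = 3), against 3138 ± 680 (SD, n = 3) in the younger glands. The log2 difference was 0.93 ± 0.15 (SE, adjusted p = 0.00245). Lalba, the regulatory subunit, which is expressed almost only in the secretory cells of the gland, gave 22312.4, 18797.9 and 20813.3 at 10 weeks and 13507.0, 10663.8 and 6936.5 at 5 weeks. Its log2 difference was 1.04 ± 0.21 (SE, adjusted p = 0.00606), and its signal in 10-week pool 1 was the highest of any probe set on that array, where differences can be compressed.

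The regions just before the annotated starts of both lactose synthase genes are shown because STAT5, the factor that carries the prolactin signal, binds sites of the form TTCNNNGAA. That of the N-glycan gene Mgat2 was picked after the search, since B4galt1 and Mgat2 were the only members called higher with a match in a window. The 250 bases before each start, from RefSeq on GRCm38.p6, are given 5′ to 3′ on the strand of the gene, with any match to that form in capitals. They lie at chr4:40853985-40854234 on the minus strand, chr15:98482684-98482933 on the minus strand and chr12:69183908-69184157 on the plus strand.
B4galt1: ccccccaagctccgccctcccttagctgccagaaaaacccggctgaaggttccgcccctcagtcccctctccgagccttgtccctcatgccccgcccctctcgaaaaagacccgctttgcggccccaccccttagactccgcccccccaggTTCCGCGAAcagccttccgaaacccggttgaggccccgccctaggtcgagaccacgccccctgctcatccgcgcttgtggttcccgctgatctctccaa
Lalba: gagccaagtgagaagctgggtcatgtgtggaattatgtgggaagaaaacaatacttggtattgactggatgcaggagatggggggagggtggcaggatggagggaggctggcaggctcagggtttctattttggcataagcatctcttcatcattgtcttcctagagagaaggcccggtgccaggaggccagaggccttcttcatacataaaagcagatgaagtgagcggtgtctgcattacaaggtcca
Mgat2: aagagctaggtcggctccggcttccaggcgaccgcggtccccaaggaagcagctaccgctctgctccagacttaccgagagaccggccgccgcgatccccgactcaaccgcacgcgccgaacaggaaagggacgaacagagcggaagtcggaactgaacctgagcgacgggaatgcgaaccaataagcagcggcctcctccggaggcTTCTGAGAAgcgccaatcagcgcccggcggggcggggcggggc
The match TTCCGCGAA in B4galt1 runs from 99 to 91 bases before the start, and the match TTCTGAGAA in Mgat2 from 43 to 35 bases before it. The motif reads the same on both strands, so a single scan covers both, and it was the only motif searched. It was found in 7.02% of all 32851 windows of this length. Members that rose had 14 windows from 9 genes, and 2 of these windows held a match. Members that fell had 18 windows from 13 genes, and 1 of these held a match, in Gcnt2. A match in letters does not show that the factor binds there, and no match in the Lalba window says only that these letters are not in it.

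The other galactosyltransferases of the B4galt family went both ways. B4galt3, which also makes N-acetyllactosamine, rose by 0.48 ± 0.14 (SE) on the log2 scale (adjusted p = 0.0278). B4galt5, a lactosylceramide synthase, fell by 0.66, while B4galt2 fell by 0.98 and B4galt4 fell by 0.98, with mean signals of only 117 and 83 at 10 weeks. The B4galt3 call did not survive leaving out 10-week pool 1 or 2 (adjusted p = 0.063 and 0.0932) or 5-week pool 1 or 2 (0.0588 and 0.0792). That of B4galt4 did not survive leaving out 10-week pool 1 or 2 (0.0503 and 0.0572) or 5-week pool 1 or 3 (0.0595 and 0.0668). When all probe sets of a gene were averaged, dim ones included, the differences were 0.20 for B4galt3 (adjusted p = 0.237) and -0.15 for B4galt5 (0.44). B4galt6, the other lactosylceramide synthase, had a log2 difference of -0.33 on its brightest probe set, short of the threshold (adjusted p = 0.0666). The log2 ratio of B4galt1 to B4galt5 within an array, taken on signal + 32 from the brightest probe sets, was higher by 1.59 at 10 weeks. Its SD among the 3 pools was 0.15 at 10 weeks and 0.36 at 5 weeks. The pair was chosen with the values known and is given as a description.

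Among the B3galt and B3galnt genes, whose enzymes add sugars in beta-1,3 linkage, both calls were decreases. B3galnt1 (1418736_at), which makes globoside of the globo-series glycolipids, gave 269.4, 284.0 and 285.4 at 10 weeks and 928.1, 1111.4 and 1212.1 at 5 weeks, a log2 difference of -1.83 ± 0.14 (SE, adjusted p = 6.06e-05). This was the largest decrease among the tested members on the brightest probe sets. B3galt2, a galactosyltransferase of type 1 chains, gave 108.7, 112.3 and 131.7 against 300.9, 280.6 and 380.7, a log2 difference of -1.23 ± 0.17 (SE). Its pools were also apart by age, and a second tested probe set of the gene gave -1.65. B3galnt2, which acts on O-mannosyl glycans of dystroglycan, did not pass the test (log2 difference -0.14, 95% interval -0.44 to 0.15). In the B4galt, B3galt and B3galnt families together, 2 of 13 tested genes rose (15.4%) and 5 fell (38.5%), with a median of -0.14. Over all genes tested 15.3% rose and 18.7% fell. In these families 1 member was not tested.

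**Figure D2:**
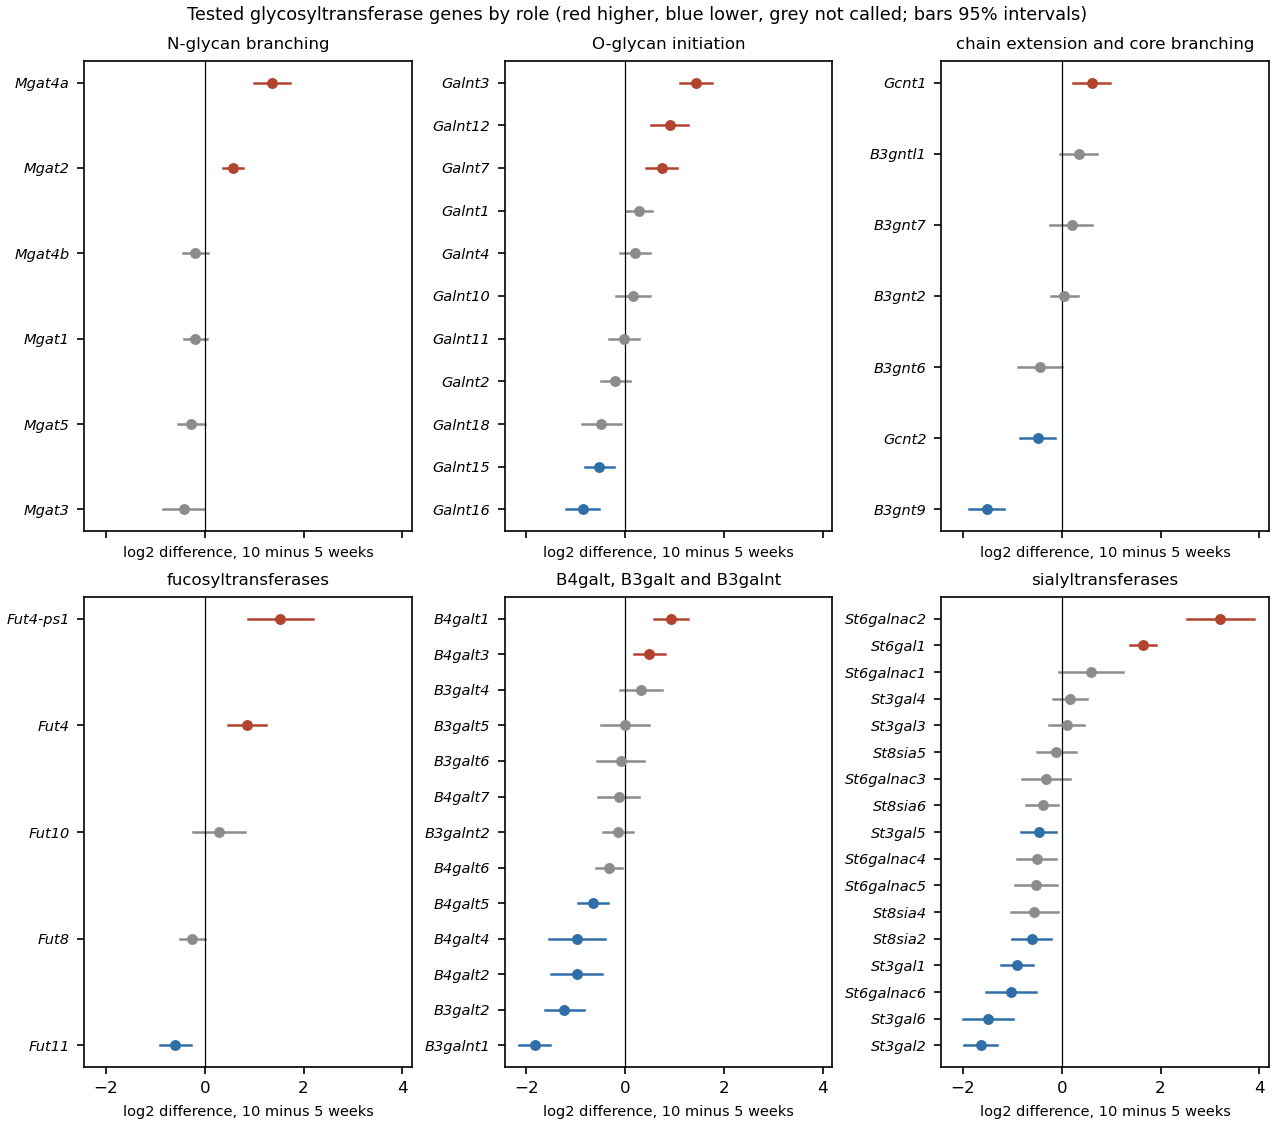
Log2 difference in signal, 10 minus 5 weeks, of the 59 tested genes in 6 role groups; points are limma estimates on the brightest probe set, bars are 95% intervals, and colours mark calls (red higher, blue lower, grey not called). St6galnac2 lies farthest right at 3.21 and B3galnt1 farthest left at -1.83, and each of the 6 groups holds genes on both sides of 0.

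The sialyltransferases, which cap chains with sialic acid, went both ways. Of 17 tested, 2 rose (11.8%, beside 15.3% of all genes tested) and 6 fell (35.3%, beside 18.7%), with a median of -0.47. Both that rose make the alpha-2,6 linkage. St6gal1 (1420928_at), which puts sialic acid on the N-acetyllactosamine ends of N-glycans, gave 5422.1, 6063.9 and 4994.8 at 10 weeks and 1931.2, 1560.9 and 1686.4 at 5 weeks. The mean was 3.18-fold higher at 10 weeks, with a log2 difference of 1.65 ± 0.12 (SE, adjusted p = 4.93e-05), and its other tested probe set gave 1.95. St6galnac2 (1417616_at), which sialylates the N-acetylgalactosamine at the root of O-glycans, gave 2580.7, 966.7 and 1389.4 against 157.4, 125.5 and 124.6. The ages did not overlap, and the log2 difference of 3.21 ± 0.30 (SE, adjusted p = 0.000174) had its size set in part by the probe set, since the gene's other tested probe set gave 0.93 ± 0.19 (SE) from means of 176 and 76.2, and the average over its probe sets was 2.07. St6galnac6, an enzyme of gangliosides, went the other way although it too makes an alpha-2,6 bond, with 244.8, 462.2 and 324.0 at 10 weeks and 595.8, 866.9 and 692.3 at 5 weeks (log2 difference -1.02 ± 0.22, SE, adjusted p = 0.00932).

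Of the alpha-2,3 sialyltransferases, 4 of 6 fell and none rose, beside 18.7% lower and 15.3% higher over all genes tested. St3gal2, which acts on the core 1 disaccharide of O-glycans and on gangliosides, gave 310.8, 368.3 and 422.7 at 10 weeks and 1145.4, 1135.4 and 1347.5 at 5 weeks (log2 difference -1.64 ± 0.14, SE, adjusted p = 0.000125). All 3 of its probe sets were tested and called lower. St3gal6, which caps N-acetyllactosamine, gave 179.2, 323.9 and 356.5 against 807.0, 766.7 and 932.9, a log2 difference of -1.49 ± 0.22 (SE, adjusted p = 0.00153). Its other tested probe sets gave -0.95 and -0.49, and all of its probe sets averaged gave -0.53, so the size of this decrease depends on the probe set. St3gal1, the main enzyme that caps core 1, fell by 0.91. St3gal5, the synthase of ganglioside GM3, fell by 0.47, a call that ended on leaving out 10-week pool 1 or 3 (adjusted p = 0.149 and 0.112) or 5-week pool 1 or 3 (0.144 and 0.0984). It was also lost under quantile normalization (0.0855), median centring (0.059), no filter (0.071) or no variance trend (0.0529), while a second probe set of the gene gave -1.39. St3gal4 and St3gal3 did not pass the test, with log2 differences of 0.17 (95% interval -0.17 to 0.51) and 0.11 (-0.25 to 0.46).

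St8sia2, which builds polysialic acid, fell by 0.61 on its brightest probe set. The other tested probe set gave -0.60 and was not called (adjusted p = 0.109). The call on the brightest ended on leaving out 10-week pool 1 or 2 (adjusted p = 0.0743 and 0.0823) or 5-week pool 1 or 2 (0.0852 and 0.0721), and with no filter (0.0594). For pairs that can use the same acceptor, chosen with the values known, the log2 ratio of St6gal1 to St3gal6 was 3.69 to 4.69 at 10 weeks and 0.83 to 1.23 at 5 weeks. That of St6galnac2 to St3gal1 was 1.41 to 2.44 against -2.48 to -2.09. These ratios show unequal change within each array and no relation between the amounts of the transcripts, since different probe sets differ in brightness. They were taken on signal + 32 from the brightest probe sets, and their size depends on that choice. Other tested probe sets gave log2 differences of 0.93 for St6galnac2, -0.62 for St3gal1 and -0.95 and -0.49 for St3gal6, but 1.95 for St6gal1.

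Of 6 tested genes of N-glycan branching, 2 rose (33.3%, beside 15.3% of all genes tested) and none fell on its brightest probe set. The median was -0.19, with 4 of the 6 differences below 0, and another probe set of Mgat5 was called lower (-1.17). Mgat4a (1435641_at), which starts an extra antenna on the trimannosyl core, gave 1375.3, 1182.6 and 1028.0 at 10 weeks and 542.5, 420.8 and 382.4 at 5 weeks, a log2 difference of 1.36 ± 0.16 (SE, adjusted p = 0.000487). Every 10-week pool was above every 5-week pool, though a second, dimmer probe set gave 0.51, just short of the threshold (adjusted p = 0.0509). Mgat2, which commits a chain to the complex type, rose from 2029 ± 104 (SD, n = 3) to 3034 ± 71.8 (SD, n = 3), with log2 differences of 0.57 ± 0.09 (SE) on this probe set and 0.64 on the other. Mgat1, which acts before it, had a log2 difference of -0.20 (95% interval -0.43 to 0.04), and Mgat4b, a paralog of Mgat4a, -0.19 (-0.45 to 0.07). Neither passed the test.

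The polypeptide N-acetylgalactosaminyltransferases, which start mucin-type O-glycans, had 3 increases and 2 decreases among 11 tested genes, with a median of 0.16. These were 27.3% and 18.2% of them, beside 15.3% and 18.7% of all genes tested. Galnt3 (1417588_at), known for protecting the phosphate hormone FGF23 from cleavage, gave 2050.0, 1500.9 and 1722.7 at 10 weeks and 602.1, 577.5 and 699.3 at 5 weeks. Its mean was 2.81-fold higher at 10 weeks with no overlap of pools (log2 difference 1.44 ± 0.14, SE, adjusted p = 0.00021), and 0.81 when its dimmer probe sets were averaged in. Galnt12 rose by 0.90 and Galnt7, which extends sites that already carry a sugar, rose by 0.74, with all 3 probe sets of Galnt7 called higher. Galnt16 fell by 0.86 and Galnt15 fell by 0.52. The Galnt15 call was lost without 10-week pool 1 (adjusted p = 0.0513), while its second probe set gave -1.07. Galnt2 and Galnt1, which act on many proteins, had log2 differences of -0.20 and 0.28 and did not pass on their brightest probe sets (adjusted p = 0.294 and 0.109).

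Of the enzymes that extend or branch chains, 1 of 7 tested genes rose (14.3%) and 2 fell (28.6%), with a median of 0.05. The shares over all genes tested were 15.3% and 18.7%. B3gnt9 (1435468_at) gave 185.9, 165.5 and 246.8 at 10 weeks and 609.6, 625.1 and 640.3 at 5 weeks, a log2 difference of -1.52 ± 0.16 (SE, adjusted p = 0.000281). Its 5-week pools lay close together and well above those at 10 weeks. Gcnt1, which makes the core 2 branch of O-glycans, rose by 0.61 on its brightest probe set and by 0.85 on the other. The call on the brightest ended on leaving out 10-week pool 1 or 3 (adjusted p = 0.0821 and 0.0661) or 5-week pool 2 or 3 (0.0676 and 0.0623). Gcnt2, which makes the I branch, fell by 0.48 with an adjusted p of 0.0469, and leaving out any pool but 5-week pool 1 ended that call (0.058 to 0.13). Quantile normalization (0.0753), median centring (0.0626), no filter (0.0756) and array weights (0.0595) ended it too, and its 8 probe sets averaged gave -0.09. B3gnt2, the main poly-N-acetyllactosamine extender, had a log2 difference of 0.05 (95% interval -0.22 to 0.33), and B3gntl1 of 0.34, and neither passed the test.

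Among the fucosyltransferases 2 of 5 tested genes rose and 1 fell. Fut4, which makes Lewis x type structures, rose from 239 ± 55.3 (SD, n = 3) to 452 ± 23.9 (SD, n = 3), with a log2 difference of 0.85 ± 0.17 (SE, adjusted p = 0.00601). Its other, dimmer tested probe set gave 0.67, short of the threshold (adjusted p = 0.0632). Fut4-ps1 (1431699_at), annotated as a pseudogene of Fut4, gave 281.6, 245.0 and 290.4 at 10 weeks and 48.1, 141.5 and 51.5 at 5 weeks (log2 difference 1.53 ± 0.29, SE). Both rose with no overlap of pools. But as the names mark a gene and its copy, transcripts of one could be measured by the probe set of the other. The 2 increases of this family therefore need not be separate, and probe sequences were not used here. Fut11 fell by 0.60. Fut8, which adds the core fucose of N-glycans, and Fut10 had log2 differences of -0.25 (95% interval -0.50 to 0.00) and 0.29 (-0.24 to 0.81) and did not pass the test.

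The 25 genes left untested had mean signals of 7.22 to 110. In 6 of these 25 the ages did not overlap, beside 42.2% of all genes on the array. Fut2, the secretor fucosyltransferase of epithelia, gave 55.0, 59.7 and 89.5 at 10 weeks and 31.0, 9.5 and 12.4 at 5 weeks. Galnt5 gave 11.5, 21.5 and 22.1 against 113.4, 141.3 and 96.5. Both were called when no filter was applied (log2 differences 1.02 and -1.56, adjusted p = 0.0202 and 0.00208), a setting in which 22.5% of 18194 genes were called. Signals this low lie in the dimmest part of the array, so these differences carry less weight than those of brighter genes.

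Several probe sets were available for 54 of the genes, and 31 had more than 1 tested. None of these genes had opposite calls on its probe sets, and 14 had 2 or more calls that pointed the same way. For the 16 called genes with another tested probe set, all 21 other probe sets had the sign of the brightest. Over all 27022 probe sets tested on the array, 3634 were called higher and 4140 lower. Another 7 members, named here after their values were seen, were not called on the brightest probe set but were on another one. Galnt1 (0.40) and Galnt10 (0.52) were higher on it. Galnt2 (-0.70), Mgat5 (-1.17), B4galt6 (-0.82), St6galnac5 (-0.82 and -0.68) and St8sia6 (-1.30 and -1.24) were lower. Mgat5, which adds the beta-1,6 branch of N-glycans, thus differed in size between probe sets, with -0.27 on the brightest.

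**Figure D3:**
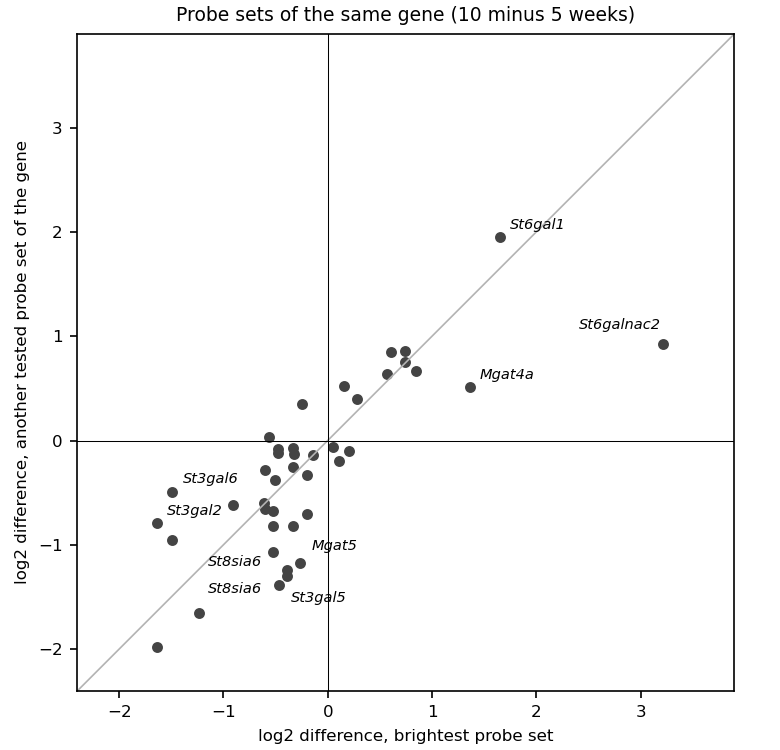
Log2 difference (10 minus 5 weeks) of the brightest probe set of a gene (horizontal axis) against that of each other tested probe set of the same gene (vertical axis), 41 points from 31 genes; the grey line marks equal values. In 36 of the 41 the sign is the same, and St6galnac2 lies far below the line with 3.21 against 0.93.

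Genes that supply these enzymes were also read from the same fit. In the list of Golgi donor import and ion supply 7 of 13 rose and none fell, with a median of 0.40, beside 15.3% higher and 18.7% lower over all genes tested. Atp2c2, a pump that brings calcium and manganese into the secretory pathway, rose from 616 ± 234 (SD, n = 3) to 4087 ± 425 (SD, n = 3), with a log2 difference of 2.73 ± 0.24 (SE, adjusted p = 0.000125). Tmem165 and Atp2c1, which serve the same ions in the Golgi, rose by 1.27 and 0.94. Manganese is the cofactor of the B4galt enzymes. Slc35a2, the carrier of UDP-galactose, rose by 0.98, but its probe sets averaged gave 0.24 (adjusted p = 0.107).

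In the list of sugar donor synthesis 8 of 20 rose and 5 fell, with a median of 0.28. The shares over all genes tested were 15.3% higher and 18.7% lower. Gmds and Gfus, the enzymes that make GDP-fucose from GDP-mannose, rose by 1.10 and 0.87. Nans, which makes sialic acid phosphate, rose 2.03-fold in mean signal, while Gfpt2, of the hexosamine pathway, fell by 1.46. The other genes of the list that rose were Cmas (0.84) and Gne (0.77) of sialic acid synthesis, Ugp2 (0.80), which makes UDP-glucose, Gnpnat1 (0.40) of the hexosamine pathway, and Pgm2 (0.80), a phosphoglucomutase. The other genes that fell were Ugdh, which turns UDP-glucose into UDP-glucuronate, by 1.23 with the smallest adjusted p of the list (7.26e-05), Pgm1 by 1.19, the hexokinase Hk2 by 1.02 and Uap1, which makes UDP-N-acetylglucosamine, by 0.54. These genes and Slc35a2 lie outside the naming rule and are named after their values were seen. With probe sets averaged, the adjusted p was 0.0678 for Gne (0.36), 0.0915 for Gnpnat1 (0.29) and 0.0553 for Uap1 (-0.32), and that of Gnpnat1 was 0.0504 without 10-week pool 2 and 0.059 without 10-week pool 3.

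Genes of Golgi structure and traffic had 9 increases and no decrease among 25 tested, with a median of 0.18. For this list and those below, the shares over all genes tested were 15.3% higher and 18.7% lower. Stx5a, Gorasp2 and Golga5, a fusion protein and a pair of Golgi matrix proteins, rose by 0.59, 0.41 and 0.67. Of 9 genes of N-glycan trimming, 2 rose (Man1c1 by 1.04 and Man1a2 by 0.77) and Man2a2 fell by 0.81, with a median of 0.06. Of 14 tested glycosyltransferases outside the name rule, 2 rose and 4 fell, with a median of -0.12. B4galnt1, the synthase of gangliosides GM2 and GD2, rose by 1.52, while Pofut1 and Mfng, which glycosylate Notch receptors, fell by 1.08 and 0.93. Pofut2 fell by 0.49, a call that ended on leaving out 10-week pool 2 or 3 (adjusted p = 0.0921 and 0.0559) or 5-week pool 3 (0.0746), under median centring (0.0556) and with no variance trend (0.0539).

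**Figure D4:**
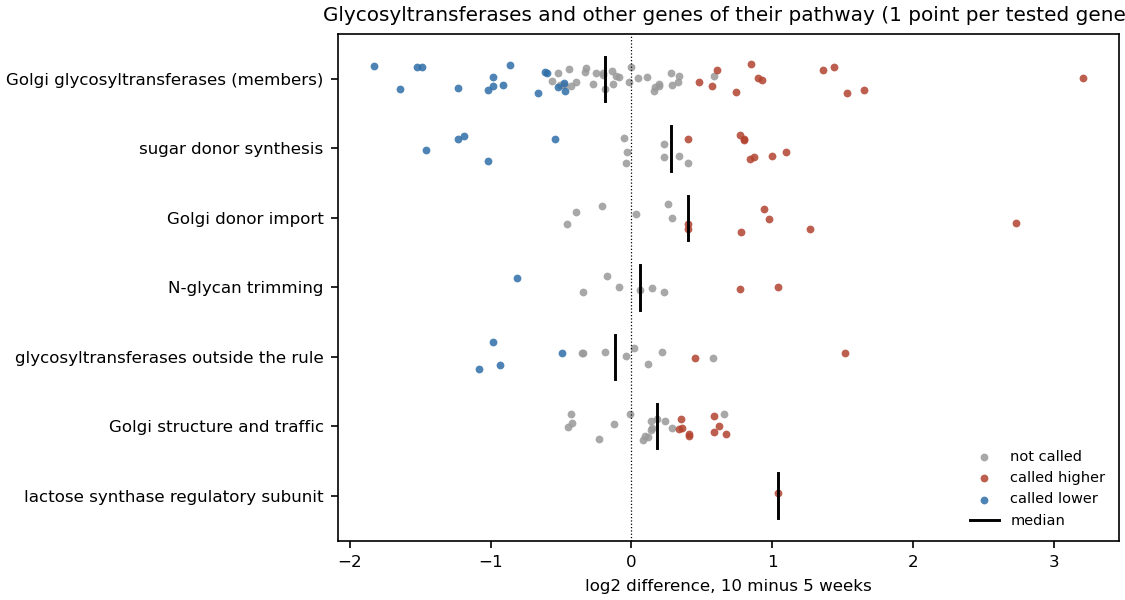
Log2 difference (10 minus 5 weeks) of the tested glycosyltransferases and of genes in 6 lists of their pathway; a point is 1 gene (red called higher, blue called lower, grey not called; vertical jitter only for legibility) and a black line the median. The import list and the Golgi structure list hold no gene called lower, while the glycosyltransferases spread from -1.83 to 3.21.

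Markers of the cell types in the gland moved with age as well. Their counts stand beside 15.3% higher and 18.7% lower over all genes tested. Of 13 luminal epithelial markers 11 were higher and none lower, and their summed signal was 66464 to 76418 in the 10-week pools and 33841 to 43565 in the 5-week pools. Of 8 fibroblast markers 7 were lower (sums of 53038 to 60063 against 80839 to 95054), as were 6 of 7 endothelial markers (4114 to 4973 against 7274 to 8410) and 3 of 5 adipocyte markers (17897 to 25133 against 30009 to 35633). Of 8 skeletal muscle markers 3 were lower, with sums of 5567 to 39842 against 48602 to 87813. In this list 10-week pool 1 stood apart at 5567, the other 10-week pools being at 39842 and 37308. Without it 10 glycosyltransferases were called higher and 11 lower, with 7 of the 28 calls lost. Calls over all genes also fell, from 1992 to 1415 higher and from 2436 to 1854 lower. Of 4 tested plasma cell markers 3 were higher and 1 lower (6301 to 8380 against 4292 to 4947). Of 5 nerve and Schwann cell markers 1 was higher and 3 lower (10299 to 11864 against 13049 to 15770). The higher one of these 5 was Sox10, with means of 6800 and 2186, which makes up much of the 10-week sums. Mbp, Pmp22 and S100b fell by 1.78, 1.48 and 1.57 on the log2 scale. Of 8 basal epithelial markers 4 were higher and 2 lower (22121 to 23452 against 18301 to 19485), of 7 milk protein genes 3 were higher (101995 to 125768 against 63664 to 91352), and of 7 macrophage markers 3 were higher and 3 lower (19576 to 21475 against 21303 to 21484). None of 6 B cell and lymph node markers (680 to 1637 against 665 to 4413) or 3 tested T cell markers (907 to 1176 against 477 to 2351) was called by limma. At an unadjusted p of 0.05, 1 marker of each list passed. The upper ends of both 5-week ranges came from 5-week pool 2, which stood apart from the other 5-week pools in these lists. Without it 10 glycosyltransferases were called higher and 15 lower, and over all genes 1655 were called higher and 2044 lower. No marker on the array was listed at 0. The part of these shifts in the glycosyltransferase differences was not tested, and in RNA of a whole gland fewer cells of a type and less RNA per cell cannot be told apart.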

How the data were processed

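Per the labels, total RNA was labelled with biotinylated UTP. The deposited values are linear signal intensities of 45101 probe sets, scaled so that each array has a mean of 500 once the 2% of probe sets at either end are trimmed, as tested on the values. No source used here states what software made the signals, on which build or in which batches (not given in the sources used here). Control probe sets (64) were left out. Of the others, 34945 had a single symbol, 932 several and 9160 none, and 34741 of the single symbols were matched by gene ID to a RefSeq table of GRCm38.p6. In the member rule, letters may stand between prefix and number, since no symbol has a number directly after B3gal. This reading adds 16 genes to 68, of which 11 were higher and 13 lower.

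Signals under 1 were set to 1 and log2(signal + 32) was taken, which understates differences of dim genes. Array medians on this scale lay within 0.118, so nothing more was normalized. The dimmest 40% of probe sets by mean were dropped, and limma 3.58.1 in R 4.3.3 (lmFit, eBayes with a trend, two-sided, 4 residual degrees of freedom) was run on the other 27022. The steps were tested on simulated data. With 3 pools against 3, a permutation test cannot go below 0.1 and was not used. Precision is limited by having 6 arrays, and the p-values measure the spread between pools of different animals and arrays together. The genes, lists and tests were chosen with earlier results of these data known. Named are all called members, the 2 brightest others of each role, B4galt1, Lalba, and from each pathway list the 3 smallest adjusted p in the main direction with the largest call the other way; further names are marked where they occur. Some genes of the pathway and marker lists were not analysed here. Alternatives changed the offset, filter, normalization, variance model, weights and probe sets, and left out each pool. Plots used Python 3.11.15 and matplotlib 3.10.9.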

Additional observations from a re-analysis of the deposited data

How the results depend on the processing

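Across 16 alternatives, the count of glycosyltransferase genes called higher was 10 to 13 (12 in the values reported) and the count called lower 11 to 18 (16). Leaving out each pool in turn gave 10 to 11 higher and 11 to 15 lower. The fewest were lower without 10-week pool 1, where the count over all genes was also at its lowest (1854). In all, 17 of the 28 called genes kept their call in every alternative, among them B4galt1, St6gal1, St6galnac2, Galnt3, Mgat4a, B3galnt1, St3gal2 and B3gnt9, and 21 kept it whichever pool was left out. Quantile normalization and median centring each ended the calls of Gcnt2 and St3gal5 and moved the median of all genes to 0.02. Leaving out the lowest 60% of probe sets removed 5 called genes from the test: B3galt2, B4galt2, B4galt4, Fut4-ps1 and St8sia2. Averaging the probe sets of a gene ended 3 calls (B4galt3, B4galt5 and Gcnt2) and added 5 (B4galt6 at -0.37, Galnt1 at 0.34, Galnt2 at -0.41, St6galnac5 and St8sia6). It also turned the sign of differences that did not pass the test, to -0.01 for B3gnt2 and -0.05 for St3gal3. No paired analysis was possible because the labels give no replicate numbers and the pools of each age hold different animals. Over its alternatives the adjusted p ran from 0.0203 to 0.237 for B4galt3, 0.0136 to 0.0668 for B4galt4, 0.0053 to 0.44 for B4galt5, 0.00239 to 0.149 for St3gal5 and 0.0129 to 0.0852 for St8sia2. It ran from 0.00135 to 0.0513 for Galnt15, 0.00423 to 0.0821 for Gcnt1, 0.0391 to 0.585 for Gcnt2, 0.0124 to 0.0921 for Pofut2, 0.00313 to 0.107 for Slc35a2, 0.00144 to 0.0678 for Gne, 0.0131 to 0.0915 for Gnpnat1 and 0.00484 to 0.0553 for Uap1. Called pathway genes numbered 23 to 30 higher and 8 to 12 lower over the alternatives. Signal over background could not be judged, since no detection call was used here, and the offset and filter limit what can be said of dim genes.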
